A study of Homo sapiens with 4 samples.

Results

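The enzymes described here write, hold and remove 2 repressive marks on chromatin, trimethylation of lysine 27 on histone H3 and methylation of cytosine in CpG sites. They were taken by gene symbol from the gene count table and are EZH1, EZH2, EED and SUZ12 (Polycomb repressive complex 2, PRC2), DNMT1 and UHRF1 (maintenance of DNA methylation), DNMT3A and DNMT3B (de novo methylation) and TET2 and TET3 (oxidation of methylcytosine). All 10 genes were found among the 17141 genes of the table, each on 1 row, and none shared its position with another gene of the table. RNA sequencing was performed on LNCaP, a human prostate cancer line that responds to androgen and was derived from a metastasis in a lymph node. There were 2 libraries of cells with stable RRM2 overexpression (LNCaP-RRM2) and 2 of cells with the empty vector (LNCaP-EV). RRM2 is the small subunit of ribonucleotide reductase, which makes the deoxyribonucleotides used in DNA synthesis. Per the study's methods, RRM2 was delivered by a lentiviral vector and the cells were kept under puromycin selection. Whether each line was a clone or a pool, and whether libraries within a group were prepared from different cultures, is not stated in the sources used here, and p-values therefore reflect the spread between these libraries alone, which may be technical.

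PRC2 places methyl groups on lysine 27 of histone H3 at silenced developmental genes. EZH2 or its paralog EZH1 is the catalytic subunit, while EED and SUZ12 are needed for its activity and stability. When DNA is copied the new strand lacks methyl groups, and UHRF1 binds the half-methylated sites and directs DNMT1 to them. EZH2, UHRF1 and DNMT1 are well known as genes of dividing cells whose transcription is induced by E2F factors, whereas EZH1 is found mostly in resting cells, and high EZH2 is a known feature of advanced prostate cancer.

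The library totals ranged from 26601061 to 32601519 counts. RRM2 was at 9291 and 8979 CPM (counts-per-million, with library totals scaled by the TMM method of edgeR) in LNCaP-RRM2, against 318 and 343 CPM in LNCaP-EV, as labelled. All 9 markers of LNCaP cells, KLK3 among them, were in the table, with a summed level of 9571 and 9905 CPM in LNCaP-RRM2 and 6917 and 6560 CPM in LNCaP-EV. The table used here held 5 of 6 fibroblast markers, 1 of 4 endothelial, 1 of 3 basal and 0 of 4 leukocyte markers. The summed level of the fibroblast markers was 36.0 and 27.1 CPM in LNCaP-RRM2 and 12.5 and 8.53 CPM in LNCaP-EV. COL1A1 made up most of it, COL1A2 had 3 to 5 counts in each library, LUM had at most 0.412 CPM, and 3 of the 4 tested were called higher in LNCaP-RRM2. KRT14, the 1 basal marker held, was at 3.13 and 2.64 CPM in LNCaP-RRM2 and 1.11 and 0.524 CPM in LNCaP-EV, and VWF, the 1 endothelial marker held, was at 9.66 and 11.3 CPM in LNCaP-RRM2 and 8.64 and 6.62 CPM in LNCaP-EV. The part of these transcripts in the results was not tested. The fold change between the groups followed the GC content of transcripts, with a median log2 fold change of 0.51 in the top decile of GC content and -0.22 in the bottom decile. A like trend lay between the LNCaP-EV libraries, where the log2 ratio of replicate 1 to replicate 2 had a median of 0.68 over genes in the top decile and of -0.11 over genes in the bottom decile.

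Out of 15162 genes tested, 1899 were higher and 1207 lower in LNCaP-RRM2 than in LNCaP-EV when both thresholds of the study were applied, 0.05 for the adjusted p and 1.5 for the fold change (quasi-likelihood test of edgeR, Benjamini-Hochberg adjusted). A gene past both is called higher or lower here. In the lists of related genes, such a gene is said to have risen or fallen. Of all calls 61.1% were higher, and this share was 72.4% with library totals alone, 75.0% with upper-quartile factors, 73.2% with RRM2 and ribosomal RNA left out, 71.6% under a stricter filter on low counts and 50.7% once a trend on GC content was removed. All 10 enzyme genes passed the filter on low counts. Of these, 3 were called lower, EZH2, DNMT1 and EED, and 0 were called higher, where 7.96% of all genes tested were called lower, 12.5% higher and 20.5% in either direction. By the adjusted p alone, 5 of the 10 were lower and 0 higher, against 24.4% and 17.8% of all genes tested. At an unadjusted p below 0.05, EZH1 was the 1 gene of the 10 that was higher, and DESeq2 and limma-voom also called 0 of them higher. The median log2 fold change was -0.30 over the 10 genes and -0.03 over all genes tested. Both LNCaP-RRM2 libraries lay below both LNCaP-EV libraries for 7 of the 10 genes and above them for 2, against 40.9% and 34.5% of all genes tested.

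**Figure D1:**
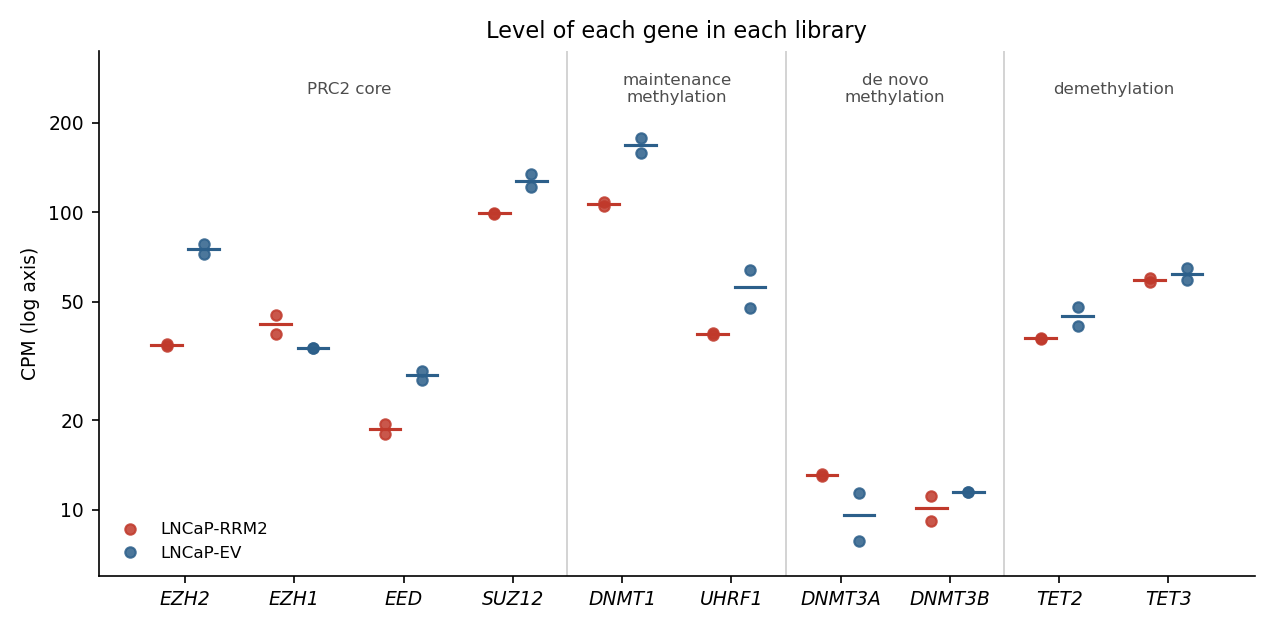
CPM of each gene (log axis) in the 2 LNCaP-RRM2 libraries (red, left) and the 2 LNCaP-EV libraries (blue, right), with the mean of each group as a bar and the genes ordered by role. EZH2 sits near 36 CPM in LNCaP-RRM2 and between 72.3 and 78.0 CPM in LNCaP-EV, whereas the TET3 points of both groups overlap.

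Because several of these genes are described as E2F targets, their promoter windows (250 bases before to 50 after each start, RefSeq, GRCh38.p14) were searched for E2F-type sites. The motifs were TTTCCCGC, TTTCGCGC, TTTGCCGC and TTTGGCGC on either strand, and overlapping matches were each counted. All 10 genes had windows. A match was found for 5 of the 10 genes, EZH2, DNMT1, UHRF1, SUZ12 and EZH1, whereas 4.0% of 27305 genes and 3.3% of 35116 windows had one. These shares are not a test, because the search was prompted by known E2F targets among the 10 genes. The 27305 genes also include many outside the 15162 tested. The stretches around the matches are shown because they set genes that differed in LNCaP-RRM2 beside EZH1, which did not pass the test. Each is written 5′ to 3′ on the strand of the gene, with the match in capitals. The matches in EZH1, DNMT1 and UHRF1 read as the motif on the opposite strand.
EZH2 (chr7:148884267-148884330, minus strand): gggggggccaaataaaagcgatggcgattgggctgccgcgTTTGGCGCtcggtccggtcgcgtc
DNMT1 (chr19:10194929-10194995, minus strand): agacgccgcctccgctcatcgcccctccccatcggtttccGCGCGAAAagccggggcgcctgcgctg
UHRF1 (chr19:4909447-4909514, plus strand): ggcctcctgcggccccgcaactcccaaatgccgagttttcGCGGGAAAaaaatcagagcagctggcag
SUZ12 (chr17:31936778-31936845, plus strand): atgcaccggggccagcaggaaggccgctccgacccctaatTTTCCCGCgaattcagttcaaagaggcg
EZH1 (chr17:42745128-42745195, minus strand): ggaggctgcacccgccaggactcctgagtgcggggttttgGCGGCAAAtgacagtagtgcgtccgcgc

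The matches of EZH2 and DNMT1 lay at a start site, their first bases being at positions 2 and -2 from it. That of UHRF1 was at -14 from 1 of its 3 RefSeq starts, which lies inside the gene as the table places it. Those of SUZ12 and EZH1 lay farther upstream, at -189 and -115. UHRF1 had a second match in the window of another start. No window of EED, DNMT3A, DNMT3B, TET2 or TET3 held these letters. Thus 2 of the 3 genes called lower, EZH2 and DNMT1, had a match and EED did not. UHRF1, SUZ12 and EZH1 had matches without a call. A match is a description of the sequence and not evidence of binding.

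EZH2 had the lowest fold change of the 10 genes. It was at 36.0 and 35.6 CPM in LNCaP-RRM2, against 72.3 and 78.0 CPM in LNCaP-EV. The libraries of each group lay close together and the groups did not overlap. The level fell to 35.8 ± 0.303 CPM in LNCaP-RRM2, against 75.2 ± 4.04 CPM in LNCaP-EV (SD, n = 2 each), which was 2.10-fold lower (log2 fold change -1.07, SE 0.08, edgeR with Benjamini-Hochberg adjustment, adjusted p = 0.00243). Among all genes tested, its log2 fold change was at percentile 1.53. EZH2 was called in each of 15 alternatives of processing, with log2 fold changes between -1.14 and -0.97 and the largest adjusted p at 0.0356 in edgeR without LNCaP-RRM2 replicate 2. In libraries of whole cultures, fewer cells that express a gene and less of its RNA in each cell cannot be told apart. The EZH2 gene lies on the minus strand of chromosome 7 from 148807372 to 148884349 (GRCh38).

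EZH1, the other catalytic subunit, did not share this difference. Its level was 39.0 and 45.2 CPM in LNCaP-RRM2, against 35.1 and 34.9 CPM in LNCaP-EV. Both LNCaP-RRM2 libraries were above the LNCaP-EV pair, but they lay farther from each other than the LNCaP-EV libraries did. The log2 fold change of 0.27 (SE 0.10, 95% interval 0.01 to 0.52) did not pass the test (edgeR with Benjamini-Hochberg adjustment, adjusted p = 0.0884). Over the 15 alternatives it stayed between 0.15 and 0.36, under the fold limit in each, and the p threshold was passed in 6.

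The count of EZH2 relative to EZH1 within a library does not depend on how libraries are scaled to each other. EZH2 had 0.924 and 0.789 times the counts of EZH1 in the LNCaP-RRM2 libraries, against 2.06 and 2.24 times in the LNCaP-EV libraries. The ratio was thus below 1 in both LNCaP-RRM2 libraries and above 2 in both LNCaP-EV libraries, a 2.51-fold difference (exact two-sided permutation test, p = 0.333, the smallest p that 2 against 2 libraries allow, adjusted over 7 ratios p = 0.389). EZH2 RNA is shorter, so per kb of the principal transcript EZH2 stayed above EZH1 in LNCaP-RRM2 as well, at 13.6 ± 0.115 against 9.10 ± 0.942 CPM per kb in LNCaP-RRM2 and at 28.5 ± 1.53 against 7.57 ± 0.0310 CPM per kb in LNCaP-EV (SD, n = 2 each). The difference in log2 count ratio was -1.33 and lay between -1.44 and -1.22 when any 1 library was left out.

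**Figure D2:**
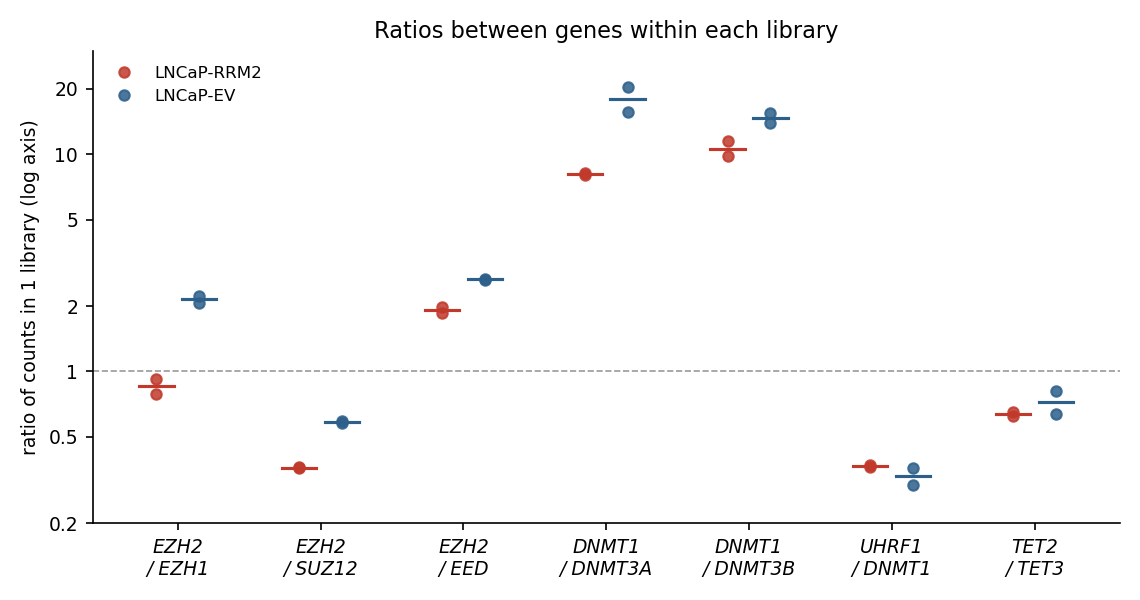
Ratio of the counts of 2 genes within each library (log axis) in LNCaP-RRM2 (red, left) and LNCaP-EV (blue, right), bars being group means and the dashed line equal counts. The EZH2 to EZH1 ratio lies below 1 in LNCaP-RRM2 and above 2 in LNCaP-EV, and of the 7 ratios the TET2 to TET3 ratio is the 1 whose groups overlap.

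EED and SUZ12, the other core subunits, differed by less than EZH2. EED, which reads trimethylated lysine 27, was at 19.4 and 17.9 CPM in LNCaP-RRM2, against 27.4 and 29.3 CPM in LNCaP-EV. It was 1.52-fold lower, just past the fold limit (log2 fold change -0.60, SE 0.11, edgeR with Benjamini-Hochberg adjustment, adjusted p = 0.0100). The call was kept in 4 of 15 alternatives. Other scalings and the stricter filter brought the log2 fold change to between -0.56 and -0.51, under the fold limit, as did leaving out LNCaP-EV replicate 2 (-0.50), and leaving out either LNCaP-RRM2 library missed the p threshold (edgeR, adjusted p = 0.0862 and 0.106).

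SUZ12, which holds the complex together, was at 99.5 and 99.1 CPM in LNCaP-RRM2, against 122 and 134 CPM in LNCaP-EV. The groups did not overlap, and the log2 fold change of -0.37 (SE 0.07) passed the p threshold but not the fold limit (edgeR with Benjamini-Hochberg adjustment, adjusted p = 0.0150). It missed the p threshold without LNCaP-RRM2 replicate 1 or 2 (edgeR, adjusted p = 0.140 and 0.133) and under the stricter filter on low counts (adjusted p = 0.0525). The principal transcript of SUZ12 has a GC content of 38.0%, and with the GC trend removed its log2 fold change was -0.27. EZH2 had 0.362 and 0.360 times the counts of SUZ12 in LNCaP-RRM2, against 0.594 and 0.581 times in LNCaP-EV, and 1.86 and 1.99 times the counts of EED in LNCaP-RRM2, against 2.64 and 2.67 times in LNCaP-EV. Both ratios were lower in each LNCaP-RRM2 library than in each LNCaP-EV library, so within a library EZH2 was the lower relative to its partners (exact two-sided permutation test, p = 0.333 for each, the smallest possible). EED lies on the plus strand of chromosome 11 from 86244384 to 86278810, SUZ12 on the plus strand of chromosome 17 from 31937010 to 32001045 and EZH1 on the minus strand of chromosome 17 from 42700275 to 42745096 (GRCh38).

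Of the pair that maintains DNA methylation, DNMT1 was called lower in LNCaP-RRM2 and UHRF1 was not called. DNMT1, the maintenance methyltransferase, was at 108 and 105 CPM in LNCaP-RRM2, against 178 and 159 CPM in LNCaP-EV. The level fell to 106.6 ± 2.57 CPM in LNCaP-RRM2, against 168 ± 13.1 CPM in LNCaP-EV (SD, n = 2 each), 1.58-fold lower (log2 fold change -0.66, SE 0.08, edgeR with Benjamini-Hochberg adjustment, adjusted p = 0.00420). It was called in 11 of 15 alternatives. With upper-quartile factors or the stricter filter it was under the fold limit (log2 fold change -0.58 and -0.56), and without either LNCaP-RRM2 library it just missed the p threshold (edgeR, adjusted p = 0.0520 for each). DNMT1 lies on the minus strand of chromosome 19 from 10133344 to 10195135 (GRCh38).

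UHRF1, the factor that directs DNMT1 to half-methylated sites, was at 39.2 and 38.7 CPM in LNCaP-RRM2, against 64.1 and 47.9 CPM in LNCaP-EV. The LNCaP-RRM2 libraries were nearly equal, and the LNCaP-EV libraries lay far apart but both above them. The log2 fold change of -0.52 (SE 0.15) passed the p threshold but not the fold limit (edgeR with Benjamini-Hochberg adjustment, adjusted p = 0.0382). It was -0.31 without LNCaP-EV replicate 1 and -0.67 without LNCaP-EV replicate 2, where UHRF1 was called (edgeR, adjusted p = 0.00975 and 0.000154), and without LNCaP-RRM2 replicate 1 or 2 the p threshold was missed (adjusted p = 0.164 and 0.158), as it was with RRM2 and ribosomal RNA left out (adjusted p = 0.0543). The principal transcript of UHRF1 has a GC content of 58.7%, the highest of the 10 genes, and that of DNMT1 55.4%. With the GC trend of each library removed, UHRF1 was called at a log2 fold change of -0.85 (edgeR, adjusted p = 1.10e-05), DNMT1 was at -0.84, and EZH2, with a GC content of 44.8%, was at -0.998. The median log2 fold change over all genes tested was then -0.12, against -0.03 with the trend left in. UHRF1 had 0.361 and 0.369 times the counts of DNMT1 in LNCaP-RRM2, against 0.361 and 0.301 times in LNCaP-EV, so the ratio of LNCaP-EV replicate 1 was close to those of LNCaP-RRM2. UHRF1 lies on the plus strand of chromosome 19 from 4903080 to 4962154 (GRCh38).

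The genes of de novo methylation were the lowest of the 10 per kb of the principal transcript, and neither was called. DNMT3A was at 13.2 and 13.0 CPM in LNCaP-RRM2, against 11.4 and 7.82 CPM in LNCaP-EV. The LNCaP-RRM2 libraries were both above the LNCaP-EV libraries, and LNCaP-EV replicate 2 stood well below the rest with 209 counts. The log2 fold change was 0.45 (SE 0.20, 95% interval -0.06 to 0.95, edgeR with Benjamini-Hochberg adjustment, adjusted p = 0.127). Without LNCaP-EV replicate 1 it was 0.73 and called (edgeR, adjusted p = 0.00243), and without LNCaP-EV replicate 2 it was 0.25. DNMT3A passed the p threshold in 3 of 15 alternatives. DNMT3B was at 11.1 and 9.13 CPM in LNCaP-RRM2, against 11.5 CPM in each LNCaP-EV library. The difference was smaller than the gap between the LNCaP-RRM2 libraries (log2 fold change -0.18, 95% interval -0.55 to 0.18, edgeR with Benjamini-Hochberg adjustment, adjusted p = 0.350).

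DNMT1 had 8.19 and 8.07 times the counts of DNMT3A in LNCaP-RRM2, against 15.6 and 20.3 times in LNCaP-EV, a 2.19-fold difference with no overlap between groups. The ratio of DNMT1 to DNMT3B was 9.77 and 11.5 in LNCaP-RRM2, against 15.4 and 13.9 in LNCaP-EV (exact two-sided permutation test, p = 0.333 for each, the smallest possible). DNMT3A lies on the minus strand of chromosome 2 from 25232961 to 25342590 and DNMT3B on the plus strand of chromosome 20 from 32762385 to 32809356 (GRCh38).

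TET2 and TET3 oxidise methylcytosine, the first step of its removal. TET2 was at 37.7 and 38.0 CPM in LNCaP-RRM2, against 41.4 and 48.1 CPM in LNCaP-EV. The LNCaP-RRM2 libraries lay below the LNCaP-EV libraries, but by little beside the gap within the LNCaP-EV pair (log2 fold change -0.24, 95% interval -0.50 to 0.01, edgeR with Benjamini-Hochberg adjustment, adjusted p = 0.110). Without LNCaP-EV replicate 1 the log2 fold change was -0.36 and passed the p threshold (edgeR, adjusted p = 0.00419), and with the GC trend removed (GC content 43.0%) it was -0.16. TET3 was at 60.3 and 58.5 CPM in LNCaP-RRM2, against 65.0 and 59.2 CPM in LNCaP-EV, and the groups overlapped (log2 fold change -0.07, 95% interval -0.27 to 0.14, adjusted p = 0.554). TET1, the third enzyme of this family, was at 3.21 and 3.74 CPM in LNCaP-RRM2, against 2.63 and 2.69 CPM in LNCaP-EV, and its log2 fold change of 0.39 did not pass the test (edgeR, adjusted p = 0.135). TET2 lies on the plus strand of chromosome 4 from 105145875 to 105279803 and TET3 on the plus strand of chromosome 2 from 73986404 to 74108175 (GRCh38).

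**Figure D3:**
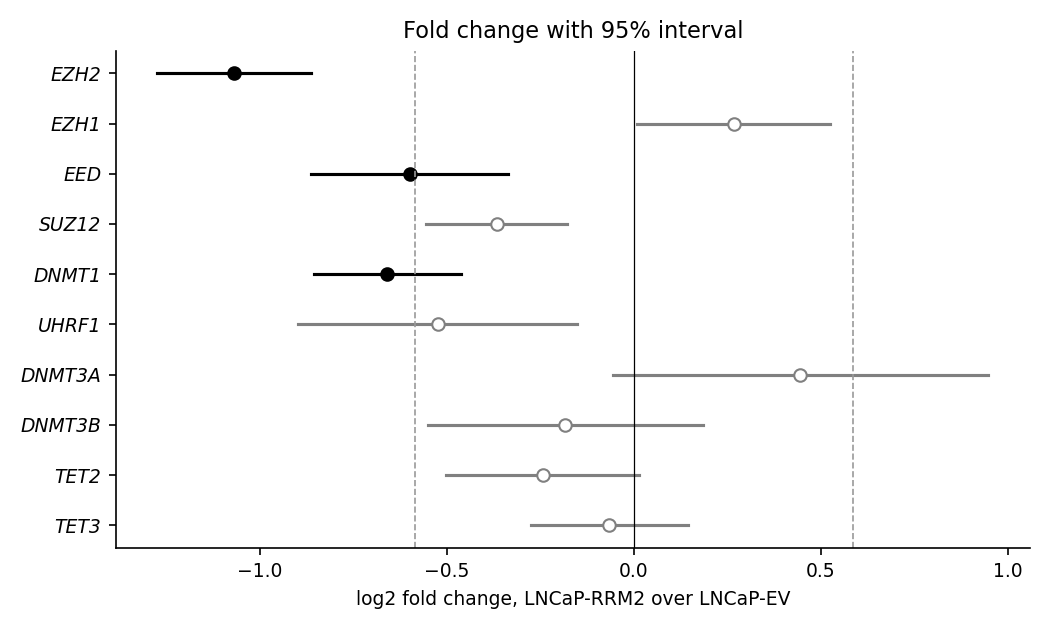
Log2 fold change of LNCaP-RRM2 over LNCaP-EV for each gene, with its 95% interval from the edgeR fit and dashed lines at a fold change of 1.5. Filled points are called, and the intervals of EZH2, EED, SUZ12, DNMT1 and UHRF1 lie below 0 while those of DNMT3A, DNMT3B, TET2 and TET3 include 0.

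Levels can be compared between genes only per length, here as CPM per kb of the principal transcript in GENCODE 29. In LNCaP-RRM2 the order was SUZ12 (22.1 CPM per kb), DNMT1 (19.7) and EZH2 (13.6), with no overlap between neighbours. In LNCaP-EV, DNMT1 (31.1 CPM per kb), SUZ12 (28.5) and EZH2 (28.5) led, and the ranges of neighbours overlapped. UHRF1 was next in both groups, at 12.1 CPM per kb in LNCaP-RRM2 and 17.3 CPM per kb in LNCaP-EV. EED averaged 8.40 ± 0.473 CPM per kb in LNCaP-RRM2, where its range overlapped that of EZH1, and 12.7 ± 0.605 CPM per kb in LNCaP-EV, where it lay above EZH1 (SD, n = 2 each). By this length, TET3, TET2, DNMT3B and DNMT3A followed in this order in both groups, with no overlap between neighbours. DNMT3A was last at 1.38 CPM per kb in LNCaP-RRM2 and 1.01 CPM per kb in LNCaP-EV. As counted, DNMT3A stopped at 25232961 at its 3′ end, whereas RefSeq places that end at 25227874. TET3 ended at 74108175, against 74135498 in RefSeq. The length counted may thus be shorter than the principal transcript, which would make these levels too low. The order of DNMT3A and DNMT3B is therefore not settled.

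**Figure D4:**
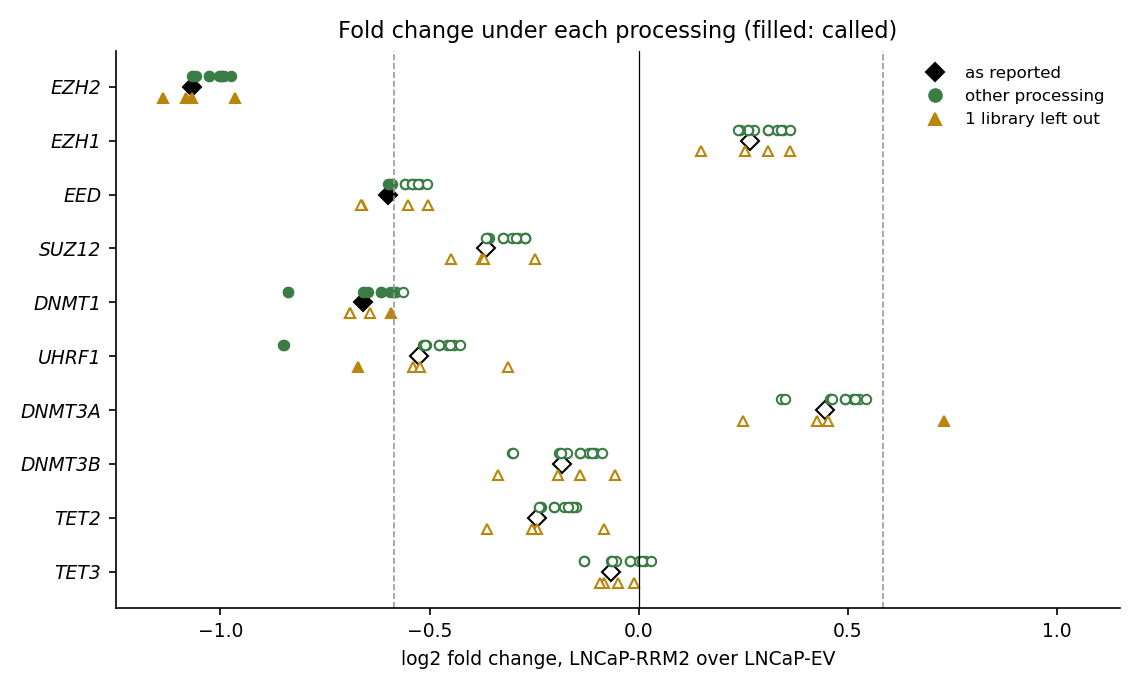
Log2 fold change of each gene as reported (diamond), under other processing (circles, above) and with 1 library left out (triangles, below), filled where the gene was called. EZH2 is filled throughout, EED and DNMT1 lie on both sides of the dashed fold limit of 1.5, and TET3 lies on both sides of 0.

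S phase genes were lower together with EZH2 and DNMT1. Of 26 tested, 20 fell, including CDC6 (log2 fold change -1.23) and CCNE2 (-1.37), and 0 rose, with a median of -0.83. The fold change of EZH2 was below that median, and those of DNMT1, EED and UHRF1 were above it. By the adjusted p alone, 24 of the 26 were lower and 0 higher, and the highest log2 fold change of the list was -0.22. Of all genes tested, 7.96% were called lower, and 24.4% were lower by the adjusted p alone. These shares are not a test, because the list was chosen with earlier results of these data known. Among 7 tested partners of DNA methylation 2 fell and 0 rose, and by the adjusted p alone 5 were lower and 0 higher. HELLS, a remodelling helicase needed for DNA methylation, was at 16.8 and 16.4 CPM in LNCaP-RRM2, against 35.0 and 38.7 CPM in LNCaP-EV, 2.22-fold lower (edgeR with Benjamini-Hochberg adjustment, adjusted p = 0.00284). PCNA, the clamp that DNMT1 binds at the replication fork and which is also counted among the S phase genes, fell 1.79-fold. Both were called in each alternative. UHRF2, the paralog of UHRF1, was at 45.6 and 48.5 CPM in LNCaP-RRM2, against 43.9 and 49.8 CPM in LNCaP-EV, and the groups overlapped. The part of the lower S phase genes in the differences of EZH2, DNMT1, EED and UHRF1 was not tested.

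The accessory subunits of PRC2 had their median log2 fold change at -0.31, and 1 of 10 tested fell while 0 rose. This was PHF19 (-0.78), which helps bring PRC2 to chromatin, at only 3.83 and 3.78 CPM in LNCaP-RRM2, against 7.15 and 5.88 CPM in LNCaP-EV. The histone-binding subunits RBBP4 and RBBP7 had log2 fold changes of -0.41 and -0.34, past the p threshold but not the fold limit (adjusted p = 0.0110 and 0.0120 by edgeR, Benjamini-Hochberg adjusted), and JARID2 was at 0.07. Of 22 subunits of PRC1, the complex that ubiquitinates histone H2A, 3 fell and 0 rose, with a median of -0.15. The fallers were BMI1 (-0.94), PCGF5 (-0.63) and PCGF6 (-0.63). The share that fell was 10% of the tested PRC2 accessory subunits and 13.6% of the PRC1 subunits. Of all genes tested, 7.96% were called lower and 12.5% higher. PCGF5 and PCGF6 were under the fold limit with library totals alone or upper-quartile factors and without LNCaP-EV replicate 2 (-0.51 and -0.37). Among 6 erasers of Polycomb marks USP16, a histone H2A deubiquitinase, fell (-0.68) and KDM6B, a demethylase of lysine 27, rose (0.78). KDM6B was at 79.8 and 70.5 CPM in LNCaP-RRM2, against 51.2 and 36.2 CPM in LNCaP-EV, and after removal of the GC trend its log2 fold change was 0.27. KDM6A, its paralog, was at -0.22, past the p threshold but under the fold limit (edgeR with Benjamini-Hochberg adjustment, adjusted p = 0.0414).

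**Figure D5:**
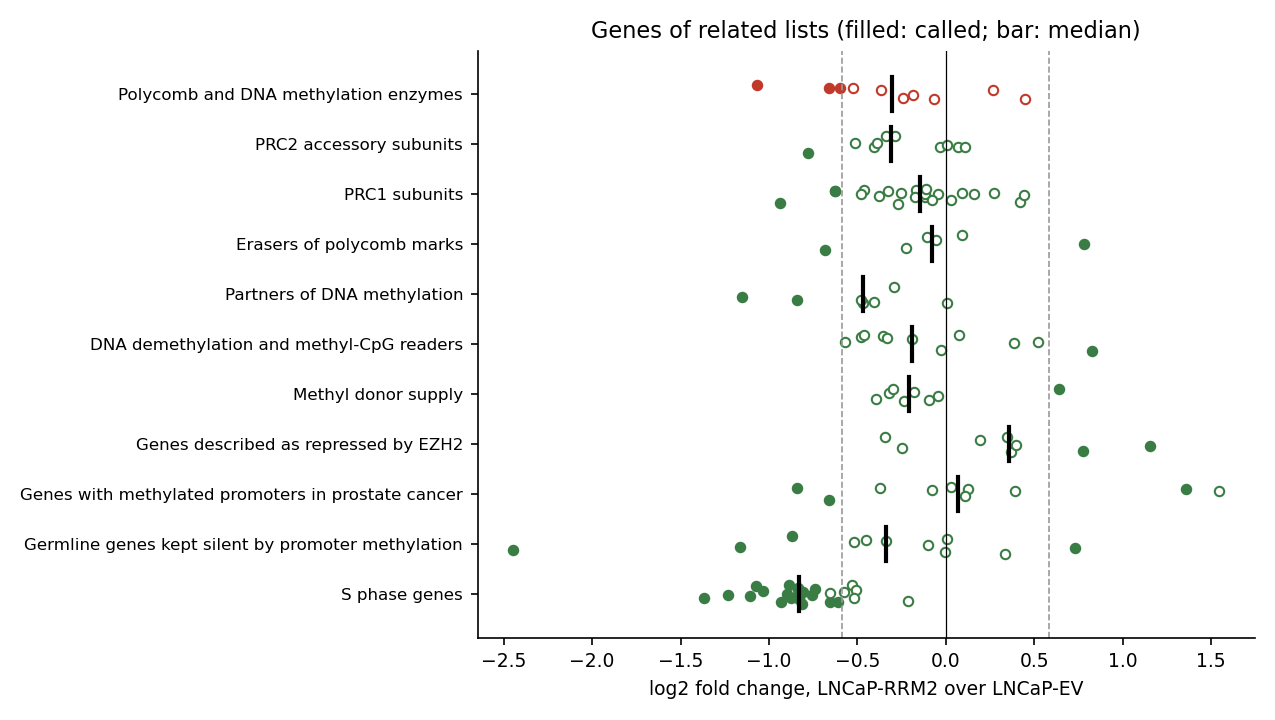
Log2 fold change of LNCaP-RRM2 over LNCaP-EV for each tested gene of the named lists (points, filled where called, vertical jitter only for visibility), with list medians as bars and dashed lines at a fold change of 1.5. The S phase genes have a median of -0.83, the 10 Polycomb and DNA methylation enzymes one of -0.30, and the genes described as repressed by EZH2 one of 0.36.

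Of 11 genes of active demethylation and methyl-CpG reading, GADD45A rose (log2 fold change 0.83) and 0 fell past both thresholds. The shares over all genes tested were 12.5% called higher and 7.96% called lower. The median of the list was -0.19. By the adjusted p alone, 5 of the 11 were lower and 1 higher, against 24.4% and 17.8% of all genes tested. MAT2A, which makes the methyl donor S-adenosylmethionine, was at -0.39, past the p threshold but under the fold limit (edgeR with Benjamini-Hochberg adjustment, adjusted p = 0.0118).

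Genes that these enzymes are described as silencing moved in different directions. The list described as repressed by EZH2 had its median log2 fold change at 0.36, and 2 of its 8 tested genes rose while 0 fell. Of all genes tested, 12.5% were called higher and 7.96% lower. MSMB, a secreted protein of prostate epithelium, was at 4.24 and 3.96 CPM in LNCaP-RRM2, against 1.80 and 1.87 CPM in LNCaP-EV (log2 fold change 1.16). VASH1, an inhibitor of vessel growth, had a log2 fold change of 0.77, and 0.48 after removal of the GC trend, where it was not called. CDH1 (0.40) passed the p threshold but not the fold limit, and PEBP1 (-0.34) passed it in the other direction, also under the fold limit (adjusted p = 0.00918 and 0.00938 by edgeR, Benjamini-Hochberg adjusted). Counts of SLIT2 and TIMP3 were too low to test, with 2 to 7 counts in each library.

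Of 10 tested genes with methylated promoters in prostate cancer, 1 rose and 2 fell, against 12.5% and 7.96% of all genes tested. SFN rose (log2 fold change 1.36), and RARB (-0.66) and AOX1 (-0.84) fell. SFN was low, at 4.16 and 2.86 CPM in LNCaP-RRM2, against 1.87 and 0.823 CPM in LNCaP-EV. After removal of the GC trend its log2 fold change was 0.85, where it was still called. Without LNCaP-EV replicate 2, RARB and AOX1 were under the fold limit (log2 fold change -0.54 for RARB and -0.56 for AOX1). DESeq2 called neither RARB (adjusted p = 0.0692) nor AOX1 (adjusted p = 0.137), and AOX1 also missed the p threshold in limma-voom (adjusted p = 0.0518). RARB was under the fold limit as well with the GC trend removed (-0.57), under the stricter filter (-0.56) and with upper-quartile factors (-0.58). GSTP1, the gene best known for promoter methylation in this cancer, had 2 counts in each LNCaP-RRM2 library, against 3 and 7 counts in the LNCaP-EV libraries, and was too low to test. Of 11 tested germline genes kept silent by promoter methylation in other tissues, 3 fell, MAGEC1 (-2.45), BRDT (-1.16) and MAGEA4 (-0.87), and 1 rose, PRAME (0.73). MAGEC1 and MAGEA4 belong to a family of paralogs, and whether reads were shared between its genes was not tested.

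Fewer genes of these lists were called when an LNCaP-RRM2 library was left out, where the spread was estimated from the LNCaP-EV pair alone. The LNCaP-EV libraries differed more from each other (chi-square per degree of freedom 23.0) than the LNCaP-RRM2 libraries did (7.76). Without LNCaP-RRM2 replicate 1 or 2, the log2 fold change was 0.82 and 0.83 for GADD45A and 1.06 and 1.60 for SFN. Leaving out LNCaP-RRM2 replicate 1 left 427 genes higher and 318 lower, and leaving out replicate 2 left 608 and 548. Under neither omission was any of PHF19, BMI1, PCGF5, PCGF6, KDM6B, GADD45A, MSMB, VASH1, SFN, RARB, AOX1 and BRDT called, with edgeR adjusted p from 0.0525 to 0.196, whereas EZH2, HELLS, PCNA, MAGEC1, MAGEA4 and PRAME were called in both. USP16 was not called without replicate 1 (edgeR, adjusted p = 0.0630).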

How the data were processed

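Total RNA of the 4 LNCaP libraries was sequenced with paired-end reads, which the authors analysed in Partek Flow. Aligner, quantification settings, genome build and annotation: not given in the sources used here. Deposited by the authors were estimated counts per gene (expected counts), not scaled between libraries, and the table's smallest gene total was 10. These counts were rounded before testing. Positions overlapped those of RefSeq (GRCh38) for 99.8% of 16038 genes matched by symbol, and 1 was subtracted from the end positions. Whether counting used strand is not stated. Intervals cover the spread between libraries as edgeR models it.

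Groups and replicate numbers came from the sample titles. Genes were filtered with filterByExpr, scaled with TMM and tested with edgeR 4.0.16 (R 4.3.3, quasi-likelihood F-test, no covariates) on all genes, after a check on simulated data. GC content and length came from principal transcripts of GENCODE 29, available for 94.8% of genes and all 10 members. The members and lists were chosen with earlier results of these data known. Every member is named, and of each other list the called genes, up to 3 in each direction by p. Some genes of these lists are not reported here. Several more genes are named as values that were not called. Alternatives used DESeq2 1.42.0, limma 3.58.1 (voom), other scalings and filters, GC offsets (loess), a replicate block and omission of each library.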

Additional observations from a re-analysis of the deposited data

How the results depend on the processing

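With 4 libraries the fits rest on few degrees of freedom, and when a library was left out the lone sample was assumed to vary like the other group. EZH2 kept its call in all 15 alternatives. The count of genes called lower was 612 under the stricter filter and 3695 with no fold limit. Without 1 library each, the genes called higher ranged from 427 to 2878, the genes called lower from 318 to 1579, the members called lower from 1 to 3 and the members called higher from 0 to 1. Of the members, 1 was lower under the stricter filter or upper-quartile factors and 5 with no fold limit. EED was under the fold limit at -0.56 in DESeq2 and -0.56 with its size factors in edgeR, -0.54 with GC offsets, alone or with the replicate block, -0.53 without RRM2 and ribosomal RNA, -0.54 with library totals, -0.51 under the stricter filter and -0.52 with upper-quartile factors, and with a library left out it ranged from -0.66 to -0.50. DNMT1 was at -0.56 under the stricter filter and -0.58 with upper-quartile factors, and from -0.69 to -0.59 with a library left out. UHRF1 passed the fold limit with GC offsets (-0.85, also with the replicate block) and ranged from -0.67 to -0.31 with a library left out. DNMT3A ranged from 0.25 to 0.73 with a library left out. TET3 changed sign without RRM2 and ribosomal RNA (0.0078), under the stricter filter (0.031) and with upper-quartile factors (0.014). The difference in log2 TET2 to TET3 ratio ranged from -0.35 to 2.36e-05, changing sign without LNCaP-EV replicate 2, with a library left out.

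Replicate numbers are shared by the groups in the titles, but nothing says that they mark a common culture or day. Across genes, which are not independent, the difference between replicates 1 and 2 correlated between the groups at 0.30, and at 0.11 after the GC trend was removed. With the replicate block 2346 genes were higher and 1255 lower, 3 members were lower and 0 higher, by the adjusted p alone 5 were lower and 2 higher (edgeR, EZH1 adjusted p = 0.0446 and DNMT3A 0.0463, and 0.000897 and 0.00860 with GC offsets as well), and the members' log2 fold changes were EZH2 -1.07, EED -0.60, SUZ12 -0.36, EZH1 0.26, DNMT1 -0.66, UHRF1 -0.51, DNMT3A 0.46, DNMT3B -0.19, TET2 -0.24 and TET3 -0.06. Depth limits mainly DNMT3A and DNMT3B, with 209 to 364 counts per library.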
